A study of Mus musculus with 6 samples.

Results

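Kainate receptors were examined in the cerebellum through 7 genes, the 5 subunit genes *Grik1* to *Grik5* and *Neto1* and *Neto2*, which encode their auxiliary proteins. These 7 of the 53746 genes in the count table were taken by symbol, and all 7 were among the 16961 genes with enough counts to be tested. The set was selected on the difference between genotypes in these same mice, since *Grik1* and *Grik4* were already known to be lower, so the members' differences are given as a description, without a test. RNA came from the whole cerebella of 6 mice aged 2 months, of which 3 were *N153S* LSL/LSL *Pcp2-cre* (called Pcp2-cre here) and 3 were *N153S* LSL/LSL without Cre (called control). Both genotypes carried the conditional *Sting1* N153S allele on both chromosomes, held back by a LoxP-Stop-LoxP cassette, and *Pcp2-cre* drives Cre, and so the removal of that cassette, in Purkinje cells. Control mice therefore did not have the wild-type locus, and no group had Cre without the conditional allele. Mice 1 and 2 of each genotype were male and mouse 3 was female. Each library mixed all cell types of the tissue, so fewer cells of a type and less RNA per cell cannot be told apart.

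Kainate receptors are glutamate-gated ion channels built from 4 subunits. GluK1, GluK2 and GluK3, the products of *Grik1*, *Grik2* and *Grik3*, can form channels by themselves and bind kainate with low affinity. GluK4 and GluK5, the products of *Grik4* and *Grik5*, bind it with high affinity and need a partner from the first subfamily to reach the surface as a working channel. NETO1 and NETO2 are membrane proteins with CUB domains that bind the receptor and change its gating. In rodent cerebellum, *Grik1* and *Grik4* transcripts are known from Purkinje cells, *Grik2* and *Grik5* from granule cells, and *Grik3* from stellate and basket cells of the molecular layer.

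Of the 7 genes, the 2 with known expression in Purkinje cells were lower in Pcp2-cre cerebella, and the other 5 were not called in either direction. *Grik1* was 54.8% lower and *Grik4* 39.7% lower than in control. The difference in *Grik2*, *Grik3*, *Grik5* and *Neto2* was at most 7.52% in size, and *Neto1*, with the fewest counts, was 30.5% higher with an interval that spans 0. A gene was called when its adjusted p was 0.05 or less and its log2 fold change 0.5 or more in either direction, which are the study's thresholds. At these thresholds 2 of 7 members were called lower, beside 1.79% of all tested genes, and 0 of 7 were called higher, beside 1.37%, with the same counts by DESeq2. All 3 Pcp2-cre mice lay below all 3 controls in 2 members, as in 11.4% of all tested genes, and above them in 1 member, as in 10.8%. The median log2 fold change was 0.02 over the 7 members and 0.0045 over all tested genes. Because the contrast chose the members, nothing is read from these shares.

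**Figure D1:**
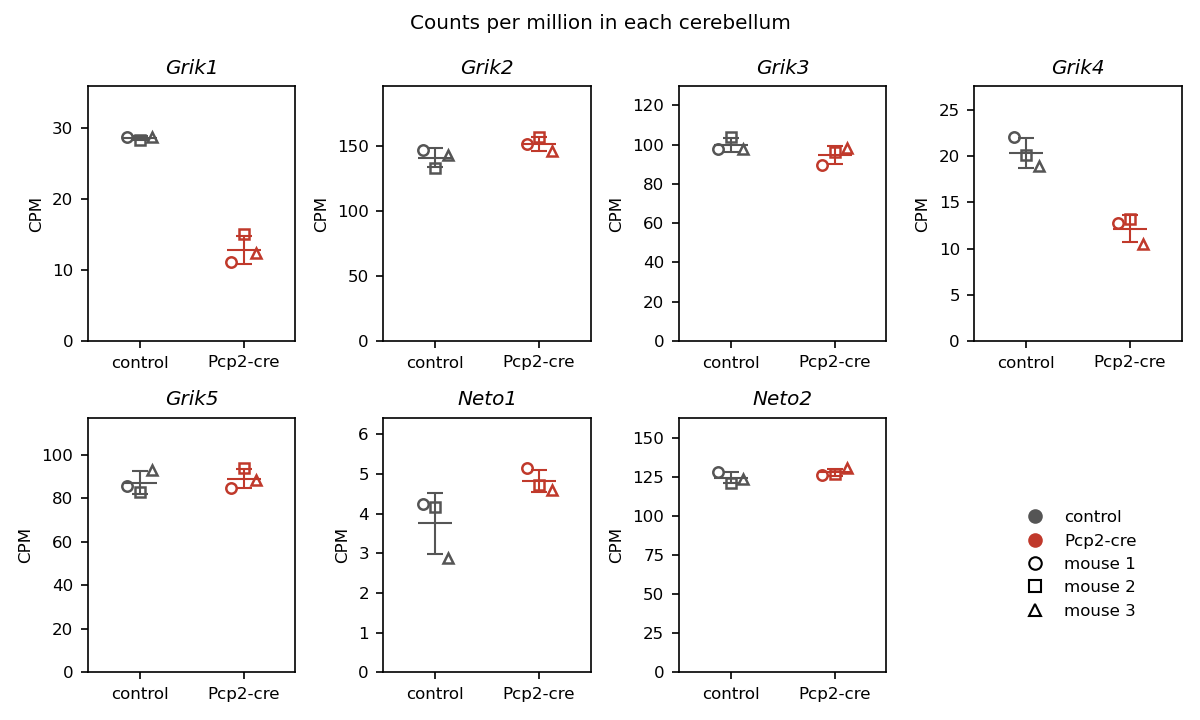
Counts scaled to library size (CPM, y axis from 0) of each member in each of the 6 cerebella, by genotype (x axis), with 1 symbol per mouse and a bar with whiskers for mean ± SD (n = 3). *Grik1* and *Grik4* lie lower in all 3 Pcp2-cre mice than in any control, *Neto1* lies higher, and the groups of the other 4 genes overlap.

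Total counts were 6733178 to 10178218 per mouse, at which a floor of 3 counts equals 0.295 to 0.446 CPM. Replicates differed by more than sampling noise (chi-square per gene 1.38 to 3.62), and sex-linked transcripts followed the label in 6 of 6 mice. *Sting1*, the engineered gene, measured 23.2, 27.2 and 26.2 CPM in controls 1, 2 and 3, and 44.4, 34.2 and 35.5 CPM in the Pcp2-cre mice. It was higher by 0.57 on the log2 scale (standard error, SE, 0.0969, edgeR adjusted p = 3.59e-04). Transcripts with and without the mutation were not told apart. From public single-cell data, the study reports *Sting1* mRNA in microglia and little or none in neurons. By staining, which it regards as the more reliable source, it found STING protein in Purkinje cells. In younger mice with Cre, it saw more STING protein in Purkinje cells and not in microglia or other neurons. Microglial genes were higher here, and Purkinje cell genes were lower. Which cells the *Sting1* difference came from was not tested.

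The channel-forming subunits were taken first. *Grik1* (ENSMUSG00000022935) lies on the reverse strand of chromosome 16 of GRCm39 from 87692788 to 88087153. Controls 1, 2 and 3 held 230, 190 and 290 counts of it, and the Pcp2-cre mice 84, 130 and 84 counts. Scaled to library size, the controls were at 28.7, 28.3 and 28.7 CPM, and the Pcp2-cre mice at 11.1, 15.0 and 12.4 CPM. The control mice were almost identical, the Pcp2-cre mice were spread more widely, and the groups lay far apart. Means were 28.6 ± 0.244 and 12.8 ± 2.00 CPM (SD, n = 3 mice each). The log2 fold change was -1.14 with an SE of 0.104 and a 95% interval of -1.36 to -0.93, that is, a level 47.4% to 61.1% lower.

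The closeness of the *Grik1* control values went beyond their depth. Their coefficient of variation was 0.855%, whereas counting error alone at 190 to 290 counts would give 6.60%, so the control SD understates the error of a single value. In Pcp2-cre mice the coefficient of variation was 15.6% beside 10.2% from counting error. The female mice, at 28.7 and 12.4 CPM, did not stand apart from the males of their genotype, and with sex as a covariate the log2 fold change was -1.15.

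*Grik2* (ENSMUSG00000056073, reverse strand of chromosome 10, 48970929 to 49664880), the main subunit of granule cells, measured 147.3, 133.1 and 143.1 CPM in controls 1, 2 and 3, and 151.7, 157.3 and 146.6 CPM in the Pcp2-cre mice. One control mouse exceeded one Pcp2-cre mouse, so the groups overlapped by a narrow margin. The log2 fold change was 0.10 (SE 0.0451, 95% interval 0.01 to 0.20), a mean 7.52% higher, and the interval allows 0.731% to 14.8%. *Grik3* (ENSMUSG00000001985, forward strand of chromosome 4, 125384202 to 125607966), the subunit known from stellate and basket cells, measured 97.8, 103.9 and 97.9 CPM in controls, and 89.6, 96.3 and 98.5 CPM in the Pcp2-cre mice. Pcp2-cre mice 1 and 2 lay below each control, and Pcp2-cre mouse 3 lay above 2 of them. Its log2 fold change was -0.07 (SE 0.0480, 95% interval -0.17 to 0.03), so a decrease of more than 11.3% lies outside the interval.

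The high-affinity subunits differed from each other. *Grik4* (ENSMUSG00000032017) lies on the reverse strand of chromosome 9 from 42429431 to 42856154. Controls 1, 2 and 3 held 177, 135 and 191 counts of it, or 22.1, 20.1 and 18.9 CPM. The Pcp2-cre mice held 97, 114 and 71 counts, or 12.8, 13.2 and 10.5 CPM. The highest Pcp2-cre mouse stayed below the lowest control, and in both genotypes the female was lowest. The means were 20.4 ± 1.60 and 12.1 ± 1.43 CPM (SD, n = 3 mice each). The log2 fold change was -0.73 with an SE of 0.112 and a 95% interval of -0.96 to -0.50, a level 29.2% to 48.7% lower. The coefficients of variation, 7.83% in control and 11.8% in Pcp2-cre mice, were close to the 7.81% and 10.5% that counting error gives. The intervals of *Grik1* and *Grik4* share a narrow stretch, and the difference between the genes was not tested.

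*Grik5* (ENSMUSG00000003378, reverse strand of chromosome 7, 24709269 to 24772708), the high-affinity subunit of granule cells, measured 85.6, 82.9 and 93.1 CPM in controls, and 84.9, 93.7 and 88.3 CPM in the Pcp2-cre mice. The genotypes were interleaved. The log2 fold change was 0.02 (SE 0.0532, 95% interval -0.09 to 0.14), which allows a difference from 5.79% lower to 9.87% higher.

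The start regions of these high-affinity genes are shown because *Grik4* was called and *Grik5*, its subfamily partner, was not. They run from 250 bases before to 50 bases after the RefSeq start on GRCm38.p6, at chr9:42944322-42944621 for *Grik4* and chr7:25072320-25072619 for *Grik5*, both on the reverse strand and written 5′ to 3′. Capitals mark the GC box, GGGCGG or its reverse complement, the letters bound by SP1 family factors.
Grik4: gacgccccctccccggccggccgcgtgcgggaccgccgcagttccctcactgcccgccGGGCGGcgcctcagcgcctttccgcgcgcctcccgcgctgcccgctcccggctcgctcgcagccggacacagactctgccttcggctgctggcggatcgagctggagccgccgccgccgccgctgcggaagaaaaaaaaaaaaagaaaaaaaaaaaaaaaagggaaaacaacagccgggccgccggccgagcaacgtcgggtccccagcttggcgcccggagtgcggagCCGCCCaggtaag
Grik5: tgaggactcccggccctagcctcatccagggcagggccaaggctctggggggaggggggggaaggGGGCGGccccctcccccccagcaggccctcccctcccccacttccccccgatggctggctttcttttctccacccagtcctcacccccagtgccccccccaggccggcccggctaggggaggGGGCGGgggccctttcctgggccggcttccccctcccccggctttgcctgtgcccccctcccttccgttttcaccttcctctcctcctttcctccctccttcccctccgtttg
Both windows held 2 GC boxes, and both were rich in G and C, at 70.0% and 72.0% beside a median of 52.7% over 32851 promoters in the RefSeq table. They differed in CpG dinucleotides, 42 in *Grik4* and 10 in *Grik5*. The table covered 5 of the 7 members (*Grik2*, *Grik3*, *Grik4*, *Grik5* and *Neto2*, the last with 2 starts), and not *Grik1* and *Neto1*. The GC box was found, on either strand, in 4 of these 6 windows, 7 times in *Grik3*, and in 35.7% of all promoters. AGGTCA, the half-site of ROR nuclear receptors, and TATAAA were searched on both strands and were in 0 of the 6 windows, so no motif overlapped another, beside 16.3% and 13.6% of all promoters. A match in letters is a description and not a binding site.

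Of the auxiliary genes, *Neto2* (ENSMUSG00000036902, reverse strand of chromosome 8, 86363217 to 86429213), known from granule cells, had the smallest spread of log2 CPM between mice of a genotype among the members (pooled SD 0.0329). Controls 1, 2 and 3 were at 128.2, 121.5 and 124.0 CPM, and the Pcp2-cre mice at 126.6, 126.7 and 130.5 CPM. The control values enclosed those of Pcp2-cre mice 1 and 2, and the log2 fold change was 0.04 (SE 0.0403, 95% interval -0.05 to 0.12). The interval allows a difference from 3.24% lower to 8.71% higher. *Neto1* (ENSMUSG00000050321, forward strand of chromosome 18, 86412139 to 86524844) reached only 34, 28 and 29 counts in controls, while the Pcp2-cre mice held 39, 41 and 31. This was 4.24, 4.17 and 2.87 CPM against 5.14, 4.73 and 4.59 CPM, above the floor in each mouse. In CPM each Pcp2-cre mouse exceeded each control, but the counts were small, with an exact Poisson 95% interval of 18.6 to 40.5 for the lowest (28 counts) and 29.4 to 55.6 for the highest (41 counts). The log2 fold change was 0.38 (SE 0.210, 95% interval -0.05 to 0.82), and without control mouse 3, the lowest, it was 0.19. A difference in *Neto1* was not detectable at this depth.

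**Figure D2:**
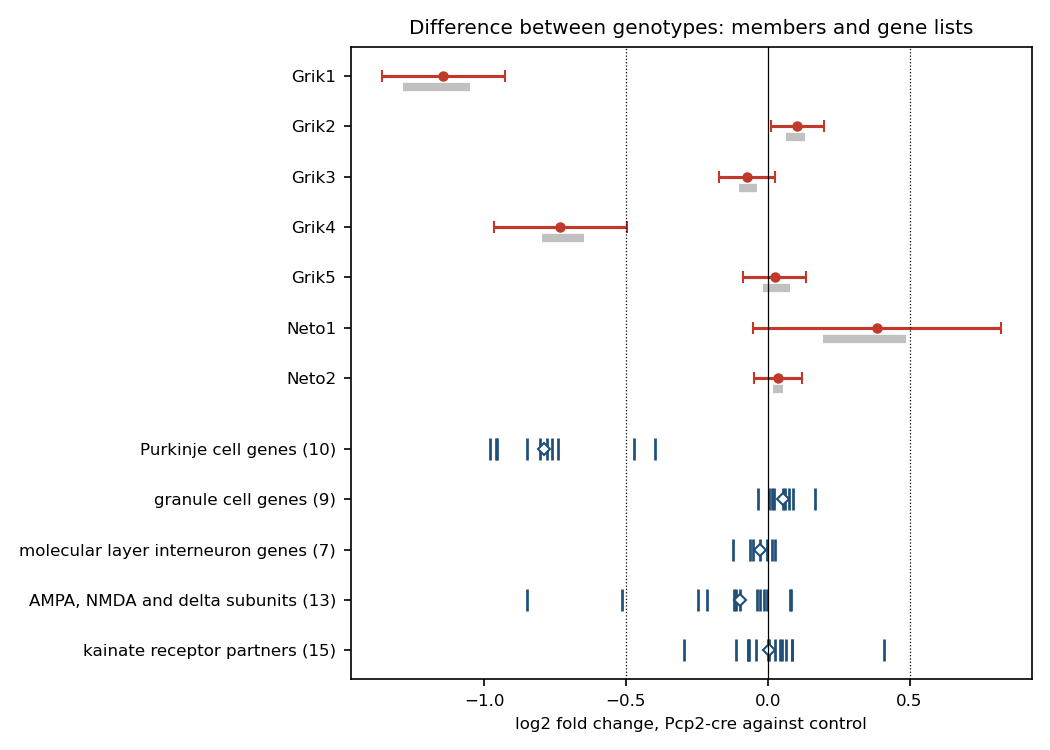
Log2 fold change (x axis) between Pcp2-cre and control cerebella. Red points with whiskers give the 95% interval of each member, grey bars the range with each mouse left out in turn, blue ticks the tested genes of each list (number in parentheses) with the median as a diamond, and dotted lines the threshold of 0.5. *Grik4* (-0.73) lies among the Purkinje cell genes, and *Grik1* (-1.14) lies below all 10 of them. The other members lie near 0 except *Neto1*, whose interval is wide.

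Annotated exons of *Grik1*, *Grik2* and *Grik3* overlapped no other gene. *Grik4* shared 59 bases with *Gm55337*, which had 0 counts in all mice. *Grik5* shared 145 bases with *Zfp574* on the opposite strand, which had 269 to 426 counts per mouse, and 8 bases with *Gm73633*. *Neto2* shared 564 bases with *Gm39214* on the opposite strand, with 288 to 435 counts, and 117 bases with *Mir8109*, with at most 3. *Neto1* shared 780 bases with *Gm54041* and 219 bases with *Gm50384*, which had at most 4 counts. Since the use of strand in counting is not stated, reads of such opposite-strand neighbours cannot be told apart from those of *Grik5*, *Neto1* and *Neto2*.

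Levels were compared between genes in FPKM (fragments scaled to the exon length of the gene and to the library). The FPKM were not the deposited counts divided by 1 length per gene: the length in kb that CPM over FPKM implies differed between mice by up to 1.23 times for *Grik1* (3.87 to 4.76), 1.18 times for *Grik4* and 1.55 times for *Neto1*, and by 1.11 to 1.17 times for the other members. Levels, shares and ratios in FPKM therefore rest on a separate estimate from the CPM above. In control cerebella *Neto2* was highest with 23.7 ± 1.42 FPKM (SD, n = 3), followed by *Grik5* with 19.6 ± 0.771 and *Grik2* with 17.3 ± 1.81. *Grik3* had 8.96 ± 0.301 FPKM, *Grik1* 6.54 ± 0.610, *Grik4* 3.01 ± 0.107 and *Neto1* 0.297 ± 0.0410. In each neighbouring pair of this order the lowest control mouse of the upper gene exceeded the highest control mouse of the lower gene, although *Grik5* and *Grik2* came close, at 18.994 and 18.893 FPKM. The genes known from granule cells thus stood at the top of the order, and those known from Purkinje cells near the bottom.

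In Pcp2-cre cerebella *Grik1* stood at 2.86, 3.68 and 2.96 FPKM in mice 1, 2 and 3, and *Grik4* 1.97, 1.81 and 1.71 FPKM. The *Grik1* values thereby came near the control level of *Grik4*, 2.91 to 3.13 FPKM, while the order of the 7 means did not change. The other members had means of 26.1 ± 1.21 (*Neto2*), 20.2 ± 2.01 (*Grik5*), 17.9 ± 1.61 (*Grik2*), 9.01 ± 0.189 (*Grik3*) and 0.407 ± 0.0814 FPKM (*Neto1*). *Grik2* and *Grik5* overlapped in range here, at 16.7 to 19.7 and 18.6 to 22.4 FPKM.

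**Figure D3:**
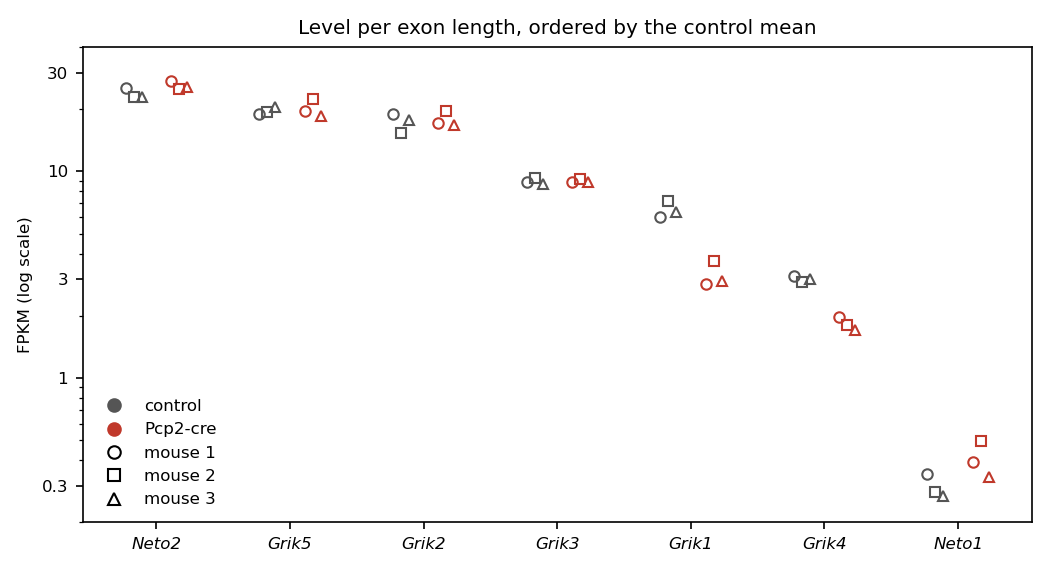
FPKM of each member in each cerebellum on a log scale (y axis), ordered by the control mean (x axis), with 1 symbol per mouse. The members span from about 0.3 FPKM (*Neto1*) to over 20 FPKM (*Neto2*), and *Grik1* and *Grik4* are the members whose Pcp2-cre values lie below the controls.

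The makeup of the subunit transcripts was described as shares of the summed FPKM of *Grik1* to *Grik5*. The sum was 55.9, 54.2 and 56.3 FPKM in controls 1, 2 and 3, while the Pcp2-cre mice reached 50.4, 56.8 and 48.8 FPKM, and Pcp2-cre mouse 2 had the highest sum of all. The share of *Grik1* was 11.8% ± 1.33 in control and 6.07% ± 0.399 in Pcp2-cre mice, and that of *Grik4* 5.43% ± 0.139 and 3.54% ± 0.363 (SD, n = 3 each). *Grik5* took 35.4% ± 1.26 and 38.7% ± 0.724, *Grik2* 31.2% ± 2.75 and 34.3% ± 0.293, and *Grik3* 16.2% ± 0.883 and 17.4% ± 1.04. These shares sum to the whole, so a lower share of one subunit raises the others.

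Shares were also taken within each subfamily. *Grik1* made up 17.8%, 22.6% and 19.4% of the channel-forming subunits *Grik1* to *Grik3* in controls 1, 2 and 3, but 9.88%, 11.3% and 10.4% in the Pcp2-cre mice. *Grik4* made up 14.1%, 13.0% and 12.8% of the high-affinity pair in controls, but 9.19%, 7.48% and 8.45% in the Pcp2-cre mice. The high-affinity pair as a whole held 40.8% ± 1.12 of the summed subunits in control and 42.2% ± 0.639 in Pcp2-cre mice, and these ranges overlapped. There were 80.4 ± 6.16 *Neto2* FPKM per *Neto1* FPKM in control and 65.9 ± 13.7 in Pcp2-cre mice, also with overlap.

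**Figure D4:**
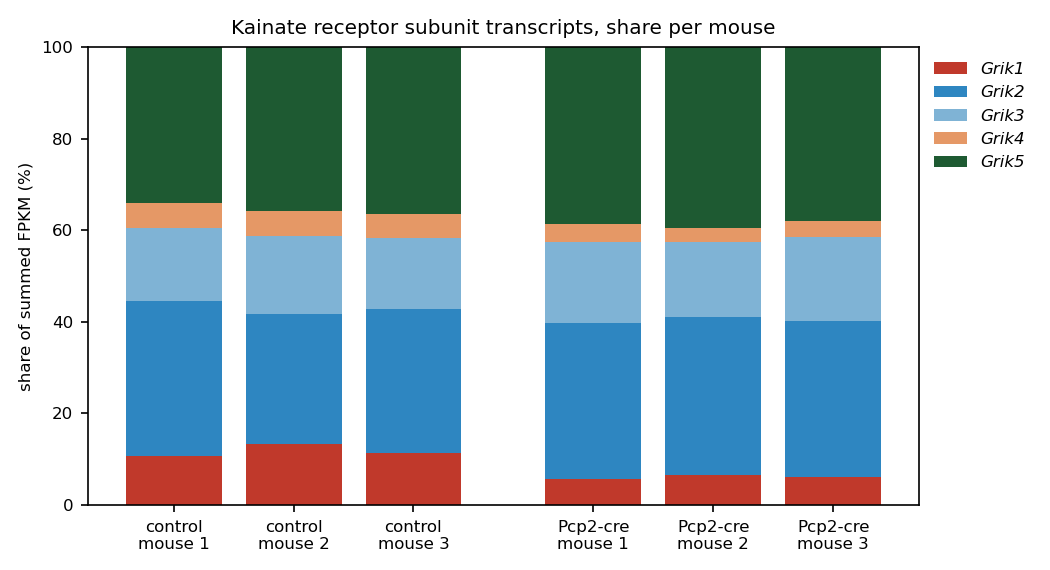
Share of each subunit in the summed FPKM of *Grik1* to *Grik5* (y axis, percent) in each cerebellum (x axis). The *Grik1* share is 10.8% to 13.3% in control and lower in every Pcp2-cre mouse, and *Grik5* and *Grik2* together hold most of the sum in all 6 mice.

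Some cell type markers of the tissue differed between genotypes as well, and others did not. All 10 genes of the Purkinje cell list were lower in every Pcp2-cre mouse than in any control, 8 of 10 were called lower, and their median log2 fold change was -0.79 (range -0.98 to -0.40), beside 0.0045 over all tested genes. Their summed level was 6390 to 6951 CPM in the controls but 3424 to 3792 CPM with Cre. The differences in *Itpr1* (a calcium release channel) and *Car8* (a carbonic anhydrase-related protein) were -0.98 and -0.96 on the log2 scale. In the granule cell list (median 0.05) 0 of 9 genes were called, and its sum was 4927 to 5076 CPM in the controls and 5135 to 5294 CPM with Cre. In the molecular layer interneuron list (median -0.03) 0 of 7 were called, at 502 to 519 CPM and 480 to 516 CPM. Microglial genes were called higher in 4 of 6, with sums of 60.9 to 65.9 CPM and 145 to 159 CPM. Bergmann glia and astrocyte genes were called higher in 2 of 6, with sums of 1778 to 1852 CPM and 2084 to 2167 CPM, and in 1 of 6 without control mouse 2, control mouse 3 or Pcp2-cre mouse 2. In this list *Gfap* alone went from 121.1 ± 8.54 to 463.2 ± 34.7 CPM (SD, n = 3 mice each), and *Aqp4* was also called higher (0.51). *Gdf10* (-0.25, edgeR adjusted p = 0.00424) and *Slc1a3* (-0.22, adjusted p = 9.95e-05), named after their values were seen, were lower in each Pcp2-cre mouse than in any control, under the fold threshold. *Hopx* (-0.06, edgeR adjusted p = 0.647) and *Fabp7* (0.21, adjusted p = 0.23) were not called, so the list had no common direction. Oligodendrocyte lineage genes were called in 0 of 5, with sums of 2643 to 2738 CPM and 3141 to 3310 CPM. By DESeq2 these 3 lists with no call also had 0, while an unadjusted edgeR p was under 0.05 in 3 granule cell, 0 interneuron and 3 oligodendrocyte lineage genes, all 6 of them higher. Choroid plexus genes were called lower in 3 of the 4 tested out of 6. Their sums were 31.1 to 1206 CPM in the controls and 22.3 to 83.7 CPM with Cre, so the genotypes overlapped and the controls differed widely among themselves. The count of choroid plexus genes called lower was 1 without Pcp2-cre mouse 2 and 5 without control mouse 3 or Pcp2-cre mouse 3. The part of these shifts in the members' differences was not tested.

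*Grik1* and *Grik4* were therefore set beside the Purkinje cell list in each mouse, as log2 CPM from the control mean. The mean of the 10 genes stood at -0.66, -0.84 and -0.81 in Pcp2-cre mice 1, 2 and 3. *Grik1* lay below that mean by 0.70, 0.08 and 0.39 log2 units, and its control values lay within about 0.05 of it. The mouse with the least negative list mean thus had the lowest *Grik1*, and the gap of -0.39 ± 0.309 (SD, n = 3) varied between mice. In the fit, 0 of the 10 Purkinje cell genes had a more negative log2 fold change than *Grik1*. *Grik4* differed from the list mean by -0.0045, 0.22 and -0.14 in Pcp2-cre mice (mean 0.02 ± 0.182) and by 0.14, -0.05 and -0.08 in controls, and 8 of the 10 genes had a more negative log2 fold change. Relative to the list, *Grik4* in Pcp2-cre mice therefore overlapped the controls, and *Grik1* did not, although in mouse 2 by a narrow margin. That mouse was at -0.08 and the lowest control at -0.05. The *Grik1* control CPM lay closer together than counting error gives, so no difference between the 2 genes is read from this margin.

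**Figure D5:**
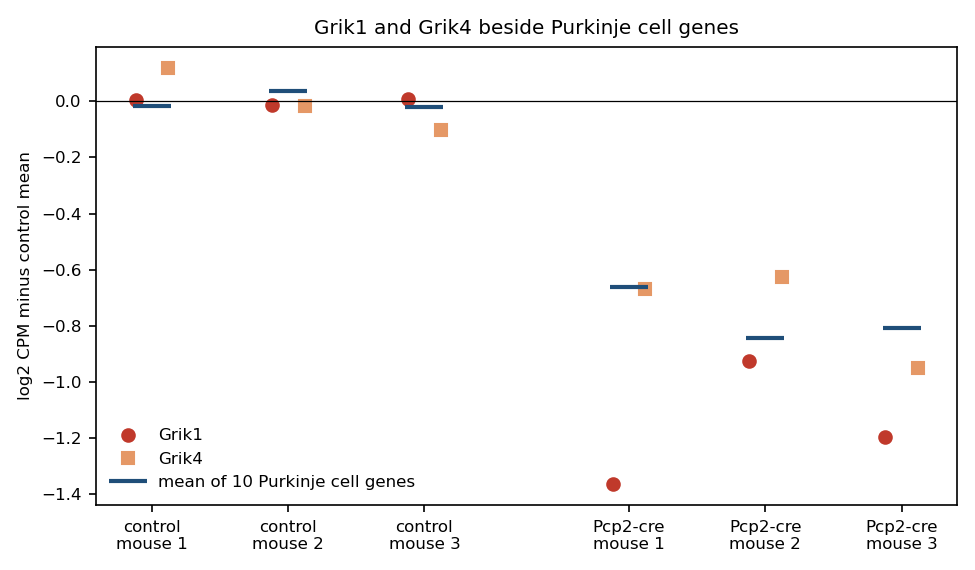
Log2 CPM minus the control mean (y axis) of *Grik1*, *Grik4* and the mean of 10 Purkinje cell genes (horizontal marks) in each cerebellum (x axis). In Pcp2-cre mice *Grik4* lies on both sides of the list mean, whereas *Grik1* lies 0.08 to 0.70 below it.

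The genes with the profile most like *Grik1* over the 6 mice, by root mean square difference of log2 CPM among 13305 genes with at least 5 CPM on average, were *Gm13944* (0.168), *Iltifb* (0.170), *Camk2a* (0.173), *Prkg1* (0.183) and *Ebf2* (0.190). *Camk2a* encodes a subunit of calcium/calmodulin-dependent kinase II, *Prkg1* a cGMP-dependent kinase and *Ebf2* a transcription factor. Their log2 fold changes lay between -1.31 and -1.08. *Iltifb* has a near-identical paralog, so its counts are uncertain. Those most like *Grik4* were *D430036J16Rik* (0.0437), *Flt3* (0.0461), *Gm17180* (0.0771), *Plcb3* (0.0771) and *Grm7* (0.0790), with log2 fold changes between -0.75 and -0.68. *Flt3* encodes a receptor tyrosine kinase, *Plcb3* a phospholipase C and *Grm7* a metabotropic glutamate receptor. None of these 10 genes was in the Purkinje cell list, but that list holds only 10 chosen genes, so absence from it does not give a cell type. The profiles were centred on the control mean, so the search itself favours genes with a similar log2 fold change. All points share the same 6 libraries.

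Among the other ionotropic glutamate receptor subunits, 2 of 13 fell, 0 rose and the median log2 fold change was -0.10. The AMPA receptor subunit *Gria3* went from 146.2 ± 8.47 to 102.2 ± 3.40 CPM (SD, n = 3 mice each), or -0.51 on the log2 scale (SE 0.0469, edgeR adjusted p = 1.04e-07). It stood at the threshold, and without control mouse 1 its log2 fold change was -0.47 and it was not called. *Gria1*, another AMPA receptor subunit, was at -0.25 on the log2 scale (SE 0.0381, edgeR adjusted p = 1.39e-04), under the fold threshold. The next in size were the NMDA receptor subunits *Grin3b* (-0.22, adjusted p = 0.524 from edgeR) and *Grin2b* (-0.12, adjusted p = 0.597).

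Of 16 genes whose products anchor, transport, modify or turn over kainate receptors, 15 were tested and 0 were called in either direction by edgeR or by DESeq2, and 1 of 15 (*C1ql3*) had an unadjusted p under 0.05. Their median log2 fold change was 0.0044, beside 0.0045 over all tested genes. The largest was *C1ql3*, a secreted synaptic protein that clusters kainate receptors with its relative *C1ql2*, at 0.41 (SE 0.156, adjusted p = 0.138). The scaffold gene *Grip1* followed at -0.29 (SE 0.145, adjusted p = 0.297) and the kinesin gene *Kif17* at -0.11 (adjusted p = 0.725), all by edgeR. *C1ql2* had too few counts to be tested, with means of 0.364 CPM (control) and 0.987 CPM (Pcp2-cre).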

How the data were processed

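Whole cerebella of 6 mice were perfused and frozen, and poly A-selected libraries were read as pairs. According to the methods, the authors trimmed reads, aligned them with STAR to GRCm39 and counted them on Gencode with featureCounts and StringTie. Versions, the release of Gencode, whether strand was used and how multi-mapping reads were counted are not given in the sources used here. Both a table of raw counts and a table of FPKM values were deposited by the authors. The FPKM could not be rebuilt from the counts with 1 length per gene, and which of the counting tools made which table is not stated. That the mice are separate animals comes from the design text.

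Counts were tested with edgeR 4.0.16 under R 4.3.3 (genes kept by filterByExpr, TMM factors, quasi-likelihood fit), with Benjamini-Hochberg adjustment over 16961 genes. TMM factors were 0.986 to 1.014. CPM are TMM-scaled, and log2 CPM used a prior count of 0.5. Intervals are at 95%. Counting intervals and the floor of 3 counts cover counting error only. Library totals set the depth, and genes with few counts have the widest intervals.

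The 7 members and the gene lists were chosen with earlier results of these data known. The text names all members, the called genes and up to 3 others of the receptor and partner lists, up to 3 of the largest differences of the Purkinje cell list, and for *Grik1* and *Grik4* the 5 nearest profiles. Some single genes are not reported here. Positions and exon overlaps came from Gencode M39 on GRCm39, and start regions from RefSeq on GRCm38.p6, which were kept apart. Protein sequences were not used here. The fits were tested on simulated data.

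Alternatives were DESeq2 1.42.0, other scaling factors, other filters on low counts, sex as a covariate, a replicate block, each mouse left out in turn, and limma 3.58.1 on log2(FPKM + 1) or log2(FPKM + 0.1). Mouse numbers are not stated to mark a litter or a batch. Same-numbered mice correlated in their deviations from the group means at 0.0645, 0.0770 and 0.224. Between mice of different numbers the correlations ran from -0.146 to 0.0945. The mice numbered 3, with the highest value, also share their sex, so the numbers were not treated as pairs.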

Additional observations from a re-analysis of the deposited data

How the results depend on the processing

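*Grik1* was called lower in all 16 alternative fits and *Grik4* in 15, and no other member was called in any of them. With each mouse left out in turn, *Grik1* stayed between -1.29 and -1.05 (log2), *Grik4* between -0.80 and -0.65, *Grik2* between 0.07 and 0.13, *Grik3* between -0.10 and -0.04, *Grik5* between -0.02 and 0.08, *Neto1* between 0.19 and 0.49 and *Neto2* between 0.02 and 0.05. Where this left 2 mice in a group, the spread was pooled over both groups. On log2(FPKM + 1), with or without the filter on low values, the differences were -0.86 for *Grik1*, 0.0077 for *Grik3*, -0.50 for *Grik4*, 0.12 for *Neto1* and 0.13 for *Neto2*. The pseudocount of 1 is large beside the FPKM of *Grik1*, *Grik4* and *Neto1*. Without the filter the members called lower came to 1, since *Grik4* was lost. Its log2 fold change was -0.503 with and without the filter, past the fold threshold, so the call was lost on the adjusted p. Why the adjusted p changed was not tested. On log2(FPKM + 0.1), *Grik3* was at 0.0085 and *Neto2* at 0.14. The cause of the move of *Grik3* and *Neto2* was not tested.

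With a replicate block, *Grik1* was at -1.15 and *Grik4* at -0.75, 2 members were called lower, and over all genes 319 were called lower and 229 higher, against 304 and 233 without it, so the block changed no member's call. DESeq2 called 146 genes higher, for a cause that was not tested. The count of other ionotropic subunits called lower ranged from 1 to 2 with each mouse left out in turn, the lower value being without control mouse 1, where *Gria3* fell under the fold threshold. Taking shares in CPM, which changes both the table and the scaling to length at once, gave *Grik1* 7.58% in control and 3.55% in Pcp2-cre mice, *Grik2* 37.4% and 42.1%, *Grik3* 26.5% and 26.3%, and *Grik5* 23.1% and 24.7%.

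Depth limited *Neto1* most, with 28 to 41 counts per mouse. With 3 mice per genotype and a whole tissue, the number of cells of a type was not measured in these libraries. From stained sections, the study reports progressive Purkinje cell loss in mice with Cre, beginning at the age sampled here. The part of this loss in the lower *Grik1*, *Grik4* and Purkinje cell genes was not tested.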
